A study of Sus scrofa with 27 samples.

Results

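The genes described here are those of the colony stimulating factor (CSF) family and of the stem cell factor pair, chosen by name. They are the ligands CSF1, IL34, CSF2, CSF3 and KITLG and the receptors CSF1R, CSF2RB, CSF3R and KIT, 9 of the 31908 genes in the count table. All 9 were present and each had at least 10 counts in every one of the 27 libraries, so none was dropped. The rule picks rows by gene name and uses no measured value, although the family was proposed with earlier results of these data known.

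The samples were bulk lung biopsies of 9 Large-White pigs whose lungs went through 12h of ex vivo lung perfusion (EVLP), in which an explanted lung is ventilated and perfused outside the body. In the Gold Standard (GS) group, 5 pigs, part of the perfusate was renewed at intervals. In the Pediatric Dialysis (PD) group, 4 pigs, the circuit was dialysed continuously through a paediatric membrane. Each lung was biopsied after cold ischemia (0h, before any perfusion) and after 6h and 12h of EVLP. All lungs came from non-heart-beating donors and all circuits held Steen solution with the glucocorticoid methylprednisolone, the antibiotic cefuroxime and heparin. The lungs were isolated organs, with no bone marrow supplying leukocytes during perfusion, and the age of the pigs is not given in the sources used here. The question asked was whether the way the perfusate is managed altered gene expression in the lung, and the GS and PD groups consisted of different animals.

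Colony stimulating factors are secreted proteins that keep myeloid cells alive and drive their maturation, each through its own receptor. CSF1 (M-CSF) and IL34 share the receptor tyrosine kinase CSF1R on monocytes and macrophages. CSF2 (GM-CSF) binds a private alpha chain paired with CSF2RB, the beta chain that IL-3 and IL-5 receptors also use, and in the lung it is required for alveolar macrophages to mature and clear surfactant. CSF3 (G-CSF) acts through CSF3R on neutrophils and their precursors. KITLG (stem cell factor) binds KIT, the receptor that mast cells and progenitor cells depend on.

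On the pig assembly Sscrofa11.1 the ligands were CSF1 (ENSSSCG00000037449, chromosome 4, 110178478 to 110197901), IL34 (ENSSSCG00000040629, chromosome 6, 13588775 to 13678738), CSF2 (ENSSSCG00000023737, chromosome 2, 134354724 to 134357155), CSF3 (ENSSSCG00000017488, chromosome 12, 22333445 to 22342163) and KITLG (ENSSSCG00000035495, chromosome 5, 94017384 to 94110216). The receptors were CSF1R (ENSSSCG00000014441, chromosome 2, 151102138 to 151147634), CSF2RB (ENSSSCG00000000136, chromosome 5, 10816371 to 10840598), CSF3R (ENSSSCG00000025795, chromosome 6, 92550159 to 92565477) and KIT (ENSSSCG00000008842, chromosome 8, 41402043 to 41493735). IL34 overlaps MTSS2 on the other strand, and the strand setting of the counting is not given in the sources used here, so reads of these 2 genes may be mixed.

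Promoters are shown for CSF2 and CSF1, the ligands whose profiles over the libraries were most like that of CSF3, the member with the largest change here. The windows are the 250 bases before the gene start in RefSeq on Sscrofa11.1, written 5′ to 3′ on the strand of the gene, and capitals mark every match on either strand to one of 4 motifs. The motifs searched were TGANTCA (AP-1), GGG and TTCC with any 3 bases between them (kappa B), GAGATTCC (CK-1, an element known from CSF genes) and GAGGAA (the core of PU.1 sites), and no matches overlapped in the promoters shown. The CSF2 window is chr2:134354474-134354723 on the plus strand and the CSF1 window chr4:110198233-110198482 on the minus strand.
CSF2: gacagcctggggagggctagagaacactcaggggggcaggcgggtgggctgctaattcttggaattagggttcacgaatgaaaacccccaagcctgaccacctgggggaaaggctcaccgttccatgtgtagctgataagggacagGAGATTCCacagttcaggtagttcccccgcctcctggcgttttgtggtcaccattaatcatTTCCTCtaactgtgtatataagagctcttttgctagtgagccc
CSF1: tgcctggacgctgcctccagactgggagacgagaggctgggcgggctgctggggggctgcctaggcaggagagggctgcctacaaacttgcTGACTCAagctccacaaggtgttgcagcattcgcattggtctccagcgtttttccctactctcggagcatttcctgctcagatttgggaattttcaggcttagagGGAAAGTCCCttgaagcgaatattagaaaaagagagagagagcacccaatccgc

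Counted back from the gene start, the CK-1 letters stood at −104 to −97 in CSF2. Of 19572 pig promoters of the same length, 161 (0.823%) held them. The PU.1 core, found in 22% of promoters, stood on the reverse strand at −43 to −38 in CSF2. CSF1 had an AP-1 match at −159 to −153 and a kappa B match on the reverse strand at −54 to −45, letters that 5.27% and 6.49% of promoters held. Among the receptors, KITLG and IL34, CSF3R matched AP-1 and kappa B, CSF2RB the PU.1 core and KITLG AP-1, while CSF1R, IL34 and KIT had none of these letters in the window. The windows of CSF1R (151130312 to 151130561) and KIT (41402084 to 41402333) lie inside these genes as placed above, since RefSeq puts their starts elsewhere. A match is a string of letters and was not tested for binding.

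Sequencing depth differed between the groups. Counts per library totalled 26335584 to 67522703 in GS and 14650700 to 21820935 in PD, with no overlap, so depth or batch and group cannot be told apart wherever PD is set against GS. The library least like its group was the 12h biopsy of PD pig 2, whose mean correlation with the other PD libraries at 12h was 0.809 against 0.893 to 0.918 for the other PD libraries at 12h. That library also had the highest summed level of the neutrophil marker list (1679 CPM, the counts scaled to equal library size), the alveolar list (82220 CPM) and the red cell list (326.6 CPM) among the PD libraries at 12h. Most of its alveolar sum was the single gene SFTPC (77430 CPM), and most of its red cell sum was HBB (324.5 CPM). Its share of mitochondrial counts was 1.65%, the lowest of all libraries, against 5.95% to 8.84% in the other PD libraries at 12h. It had the fewest genes with a count (18979) and also the lowest total of counts (14650700). The 0h library of PD pig 4 also lay away from its group, with a mean correlation of 0.880 against 0.927 to 0.938 for the other PD libraries at 0h, the highest PD sums at 0h of the neutrophil (1240 CPM), alveolar (72850 CPM) and red cell (222.9 CPM) lists and the lowest of the macrophage (2887 CPM) and endothelial (1242 CPM) lists. Several PD values at 12h or 0h that change with these libraries, though not all, are also given without them. Alveolar epithelial markers summed to at least 5597 CPM and macrophage markers to at least 2585 CPM in every library, whereas MPO, the defining granule enzyme of neutrophil precursors, was at 0 in 17 of 27 libraries. In bulk tissue, fewer cells of a type and less RNA per cell cannot be told apart.

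Per kilobase of exon, CSF1R was the most abundant member in lung before perfusion. Its median level at 0h was 86.4 CPM per kb in GS and 30.0 in PD. In GS it was followed by CSF2RB (47.0), CSF1 (29.9), KITLG (22.7), CSF3R (18.2) and KIT (13.0), with neighbours overlapping in range all the way down. A gap separated KIT (lowest 8.61) from CSF2 (median 2.43, highest 5.87), CSF2 overlapped with CSF3 (1.81), and IL34 lay at the bottom (0.578, range 0.525 to 0.926) below every CSF3 value. The order of these last genes rests on exon length in RefSeq, 798 bases for CSF2, 1911 for CSF3 and 9541 for IL34. In plain CPM the GS medians at 0h ran the other way, 1.94 for CSF2, 3.455 for CSF3 and 5.52 for IL34. In PD at 0h the order was CSF1R, KITLG (21.3), CSF1 (14.8), CSF2RB (13.1), CSF3R (7.64), KIT (7.59), CSF2 (3.05), CSF3 (1.81) and IL34 (0.600). With all 4 pigs, IL34 was the only member with no overlap with its neighbour. Without the 0h library of pig 4 the middle CSF2 value was 1.62, below that of CSF3 (1.80), so their order turned. KIT (lowest 6.89) and CSF2 (highest 4.47) then no longer overlapped, while IL34 (highest 0.737) overlapped with CSF2 (lowest 0.647). By 12h CSF3 had left the lower end of this order, with a median level of 21.6 CPM per kb in GS and 36.5 in PD, the latter the highest median of any member in PD. That rank rests on the 12h library of PD pig 2, without which the PD median of CSF3 was 13.8 CPM per kb, below KITLG (26.98), CSF2RB (23.4) and CSF1 (19.2). GS pig 9 was an exception, with CSF3 at 2.88 CPM per kb at 12h, still among the lowest 3 members.

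**Figure D1:**
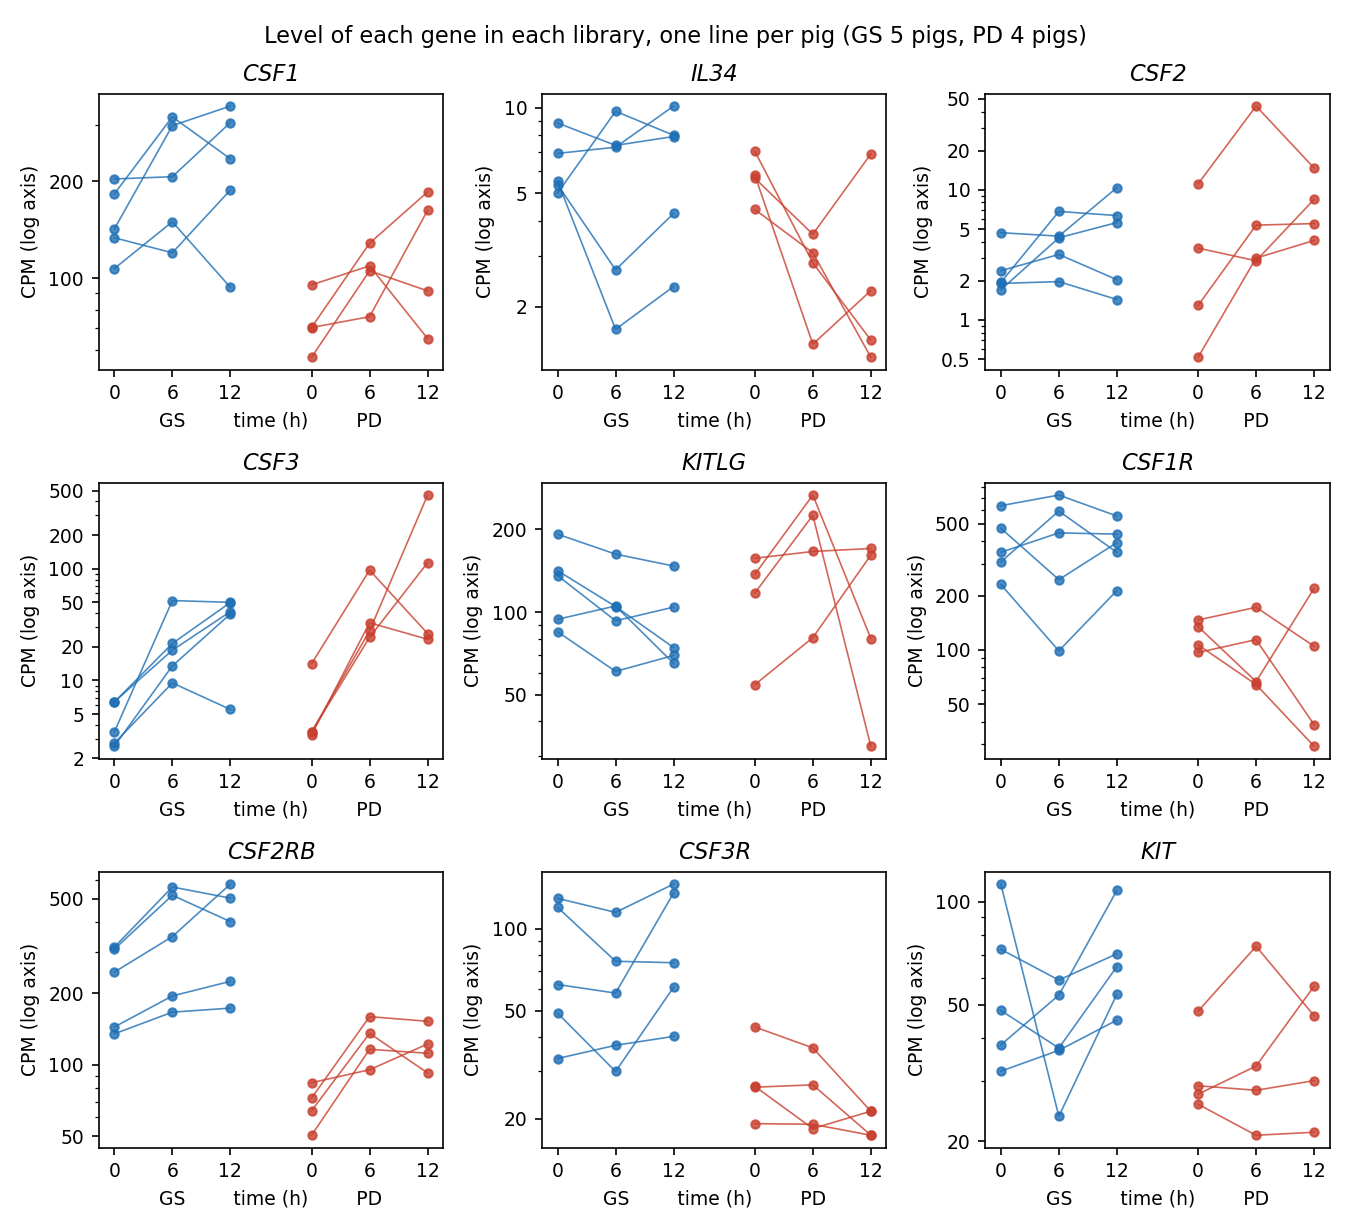
Level of the 9 genes in each of the 27 libraries in CPM (log axis) against EVLP time in hours, GS in blue and PD in red, with 1 line per pig. CSF3 lies higher at 6h and at 12h than at 0h in all 9 pigs, and the CSF2RB lines of PD lie below those of GS at each time.

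A member was called when it changed at least 2-fold and its Benjamini-Hochberg adjusted p in edgeR's quasi-likelihood test, with pig as block, was under 0.05. By this rule CSF3 was the only member called against 0h, at 6h and 12h in GS and at 12h in PD. In GS that was 1 of 9 members called higher at each time, where 5.5% of all tested genes were called higher at 6h and 6.99% at 12h. In PD it was 0 of 9 at 6h, where 0.135% of genes were called higher and 0.00643% lower, and 1 of 9 at 12h, where 3.22% were called higher and 2.76% lower. Nothing was called lower among the members in GS, where 5.56% of genes were at 6h and 8.66% at 12h. CSF3 and CSF2RB were the members higher than at 0h in every pig of both groups at both times, as were 2.94% of the 15459 genes tested in both groups. Taken singly, 18.3% (GS 6h), 20.1% (GS 12h), 11.2% (PD 6h) and 12.3% (PD 12h) of tested genes were higher in every pig.

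CSF3, the neutrophil growth factor, was scarce at 0h and rose several-fold. CSF3 in the GS lungs (pigs 17, 44, 55, 77 and 9) stood at 2.57, 3.46, 6.43, 6.39 and 2.74 CPM at 0h, at 13.5, 51.9, 18.6, 21.4 and 9.5 CPM at 6h, and at 39.3, 49.97, 41.3, 49.8 and 5.50 CPM at 12h. Every 6h value lay above every 0h value, and at 12h only pig 9 fell within the 0h range. The log2 fold change in edgeR was 2.22 ± 0.39 (SE, adjusted p = 0.00187) at 6h and 2.85 ± 0.40 (adjusted p = 0.000308) at 12h, higher in 5 of 5 pigs.

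CSF3 in the PD lungs (pigs 2, 3, 4 and 5) stood at 3.45, 3.25, 14.1 and 3.46 CPM at 0h, at 27.8, 32.8, 97.0 and 24.3 CPM at 6h, and at 456.1, 23.3, 26.3 and 113 CPM at 12h. Pig 4 was the highest at 0h and at 6h, and pig 2 far the highest at 12h. At 6h the log2 ratio to the same pig's 0h value was 2.98 ± 0.25 (SD, n = 4), with a smaller SD than the 2.27 ± 0.97 (SD, n = 5) of GS. The fitted log2 fold change of 2.95 ± 0.88 (SE) nevertheless had an adjusted p of 0.274 in edgeR, in a comparison with 22 calls among 15545 genes. CSF3 at 6h was called with DESeq2 (2.96, adjusted p = 0.00847, where 2.05% of genes were called higher), with all 27 libraries in 1 fit (2.96, adjusted p = 0.0319, with 1.89% called higher) and without the 12h library of pig 2 (2.95, adjusted p = 0.0186, with 1.3% of genes called higher). At 12h the edgeR log2 fold change was 4.53 ± 1.04 (SE, adjusted p = 0.0326), higher in 4 of 4 pigs. Without the 12h library of pig 2 it was 3.17 ± 0.66 (adjusted p = 0.00710). Without pig 4 it was 5.43 (adjusted p = 0.0309). Without pig 3 or pig 5 the 12h call was lost (5.10, adjusted p = 0.176, and 4.17, adjusted p = 0.304).

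CSF2, the granulocyte and macrophage factor, had the lowest single count of the family. Its counts ran from 10 to 688 per library. The floor below which nothing is read was 3 counts, at most 0.205 CPM in any library when scaled by total counts alone. The CPM values of the genes use TMM library sizes, so this floor value is not on their scale. In GS pigs 17, 44, 55, 77 and 9 CSF2 stood at 1.91, 1.94, 1.71, 4.68 and 2.39 CPM at 0h, at 1.97, 6.82, 4.28, 4.41 and 3.19 CPM at 6h, and at 1.44, 6.35, 5.61, 10.4 and 2.04 CPM at 12h. The values at 0h and 12h overlapped, with pigs 17 and 9 lower at 12h than at 0h. CSF2 had a log2 fold change of 0.65 ± 0.34 (SE) at 6h and 0.74 ± 0.35 at 12h, and neither passed (edgeR adjusted p = 0.171 and 0.104). Without pig 17 or without pig 9 CSF2 was called at 12h (1.04 in both fits, adjusted p = 0.0483 and 0.0449). The share of all genes called in those fits is not given.

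In PD pigs 2, 3, 4 and 5 CSF2 stood at 1.29, 0.516, 11.11 and 3.57 CPM at 0h, at 5.36, 2.99, 44.1 and 2.85 CPM at 6h, and at 5.50, 4.08, 14.7 and 8.45 CPM at 12h. Pig 4 was the highest at each time, and pig 5 was the exception at 6h with a lower value than at 0h. The edgeR log2 fold change was 1.53 ± 0.55 (SE, adjusted p = 0.412) at 6h and 1.66 ± 0.55 (adjusted p = 0.0945) at 12h, when CSF2 was higher in 4 of 4 pigs. Without the pig as block the 12h value was 0.93 (adjusted p = 0.580). At 12h it was called with DESeq2 (1.71, adjusted p = 0.0150, where 8.77% of genes were called higher) and with all 27 libraries in 1 fit (1.65, adjusted p = 0.0205, again with 8.77% called higher). Per kilobase of exon, CSF3 stood at a median of 0.57 times the level of CSF2 in GS at 0h and 0.822 times in PD. Without the 0h library of pig 4, PD pigs 2, 3 and 5 stood at 1.11, 2.63 and 0.405 times, so CSF3 lay above CSF2 at the middle value. By 12h the ratio was 3.08 (range 1.13 to 11.4) in GS and 3.99 (0.746 to 34.6) in PD, where the highest ratio came from pig 2. Without the 12h library of pig 2 the PD median was 2.39, below that of GS. In plain CPM the medians at 0h already placed CSF3 (3.455 in GS and in PD) above CSF2 (1.94 and 2.43).

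CSF1 and IL34, the ligands that share CSF1R, differed widely in level. CSF1 in GS pigs 17, 44, 55, 77 and 9 stood at 134, 203, 142, 183 and 107 CPM at 0h, at 120, 207, 298, 317 and 149.8 CPM at 6h, and at 188, 304, 343, 235 and 93.7 CPM at 12h. It was higher in 4 of 5 pigs at each time, the exceptions being pig 17 at 6h and pig 9 at 12h. The fit gave a log2 fold change of 0.42 ± 0.21 (SE, edgeR adjusted p = 0.146) at 6h and 0.44 ± 0.21 (adjusted p = 0.110) at 12h. Levels of CSF1 in PD pigs 2, 3, 4 and 5 stood at 70.3, 56.9, 95.4 and 70.4 CPM at 0h, at 76.0, 105.5, 109 and 128.5 CPM at 6h, and at 162.5, 91.4, 65.0 and 185 CPM at 12h. All 4 pigs were higher at 6h, and pig 4 was lower at 12h. The fitted log2 fold change of CSF1 was 0.48 ± 0.39 (SE, adjusted p = 0.677) and 0.75 ± 0.40 (adjusted p = 0.279), neither called.

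IL34 had few counts, 23 to 632 per library. Levels of IL34 in GS pigs 17, 44, 55, 77 and 9 stood at 5.37, 5.01, 8.84, 6.91 and 5.52 CPM at 0h, at 2.69, 9.72, 7.38, 7.27 and 1.66 CPM at 6h, and at 4.25, 8.01, 7.92, 10.1 and 2.35 CPM at 12h. Pigs 17, 55 and 9 were lower at both later times and pigs 44 and 77 higher, and the log2 fold change was −0.43 ± 0.31 (SE, edgeR adjusted p = 0.314) at 6h and −0.22 ± 0.30 (adjusted p = 0.580) at 12h. IL34 in the PD lungs (pigs 2, 3, 4 and 5) stood at 5.65, 4.39, 5.80 and 7.03 CPM at 0h, at 3.59, 3.09, 1.47 and 2.85 CPM at 6h, and at 6.88, 1.33, 2.27 and 1.52 CPM at 12h. No 6h value reached the 0h range, and at 12h only pig 2 did. Being lower in all 4 pigs at 6h was shared by 11.0% of genes. IL34 had a log2 fold change of −1.14 ± 0.51 (SE, adjusted p = 0.524) at 6h and −1.18 ± 0.52 (adjusted p = 0.193) at 12h. Without the 12h library of pig 2, IL34 was called lower at 12h (−1.71 ± 0.47, adjusted p = 0.0208), in a fit with 14.3% of genes called lower. Per kilobase, CSF1 exceeded IL34 by a median of 49.9 times in GS and 25.5 times in PD at 0h, and by 79.9 and 97.7 times at 12h, the PD value being 138.1 without the 12h library of pig 2. The exon length was 4760 bases for CSF1 and 9541 for IL34, so ratios in plain CPM are smaller.

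KITLG, the ligand of KIT, was lower at 6h in 4 of 5 GS pigs and higher in 4 of 4 PD pigs. KITLG in the GS lungs (pigs 17, 44, 55, 77 and 9) stood at 192, 84.8, 141.5, 136 and 94.1 CPM at 0h, at 162.5, 60.8, 105, 92.9 and 105 CPM at 6h, and at 147, 69.5, 74.2, 104 and 65.0 CPM at 12h. All 5 pigs were lower at 12h than at 0h, a direction shared by 17.6% of genes, although the groups of values overlapped. The log2 fold change at 12h was −0.57 ± 0.14 (SE) with an edgeR adjusted p of 0.00794 and a size under 2-fold, so KITLG was not called (by adjusted p alone 20.8% of genes were lower), and at 6h it was −0.33 ± 0.14 (adjusted p = 0.0994). Without the pig as block the adjusted p at 12h was 0.204. In PD pigs 2, 3, 4 and 5 KITLG stood at 117, 157, 54.4 and 137 CPM at 0h, at 225, 166, 80.7 and 267 CPM at 6h, and at 32.4, 170.4, 161 and 80.1 CPM at 12h. The pigs split at 12h, with pigs 2 and 5 lower and pigs 3 and 4 higher. The fit gave a log2 fold change of 0.69 ± 0.53 (SE, adjusted p = 0.662) at 6h and −0.01 ± 0.55 (adjusted p = 0.992) at 12h, the latter 0.45 ± 0.44 without the 12h library of pig 2.

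**Figure D2:**
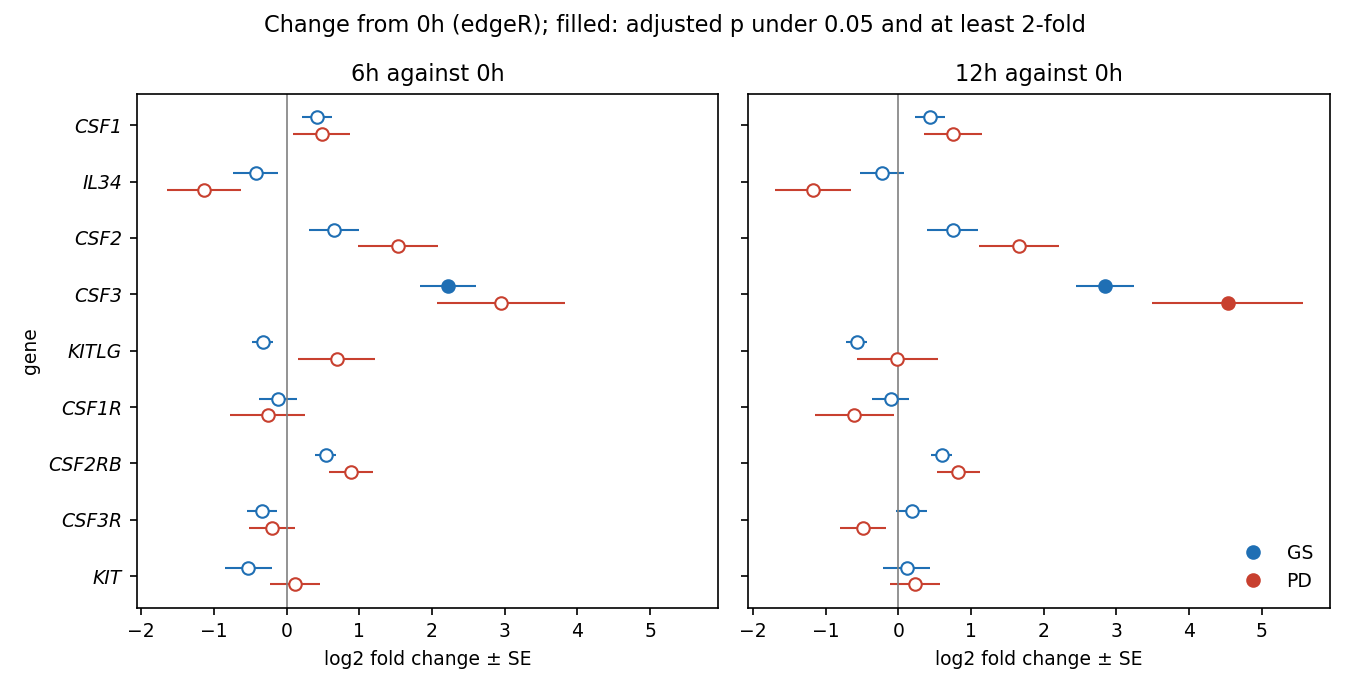
Fitted log2 fold change from 0h with its SE for each gene at 6h (left) and 12h (right), GS in blue and PD in red. Filled points, adjusted p under 0.05 and at least 2-fold, are CSF3 in GS at both times (2.22 and 2.85) and in PD at 12h (4.53).

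CSF2RB, the shared beta chain, was the receptor that lay above its 0h level in every pig of both groups at both times. In GS pigs 17, 44, 55, 77 and 9 it stood at 144, 313, 246, 307 and 135 CPM at 0h, at 195, 561, 347, 518 and 167 CPM at 6h, and at 225, 504, 578, 401 and 173 CPM at 12h. Each pig was higher than its own 0h value, and the order of the pigs at 0h and 6h was the same. The fitted log2 fold change of CSF2RB was 0.54 ± 0.15 (SE, edgeR adjusted p = 0.0168) at 6h and 0.60 ± 0.15 (adjusted p = 0.00710) at 12h, both under 2-fold and so not called. By adjusted p alone 13.6% and 17.6% of genes were higher at 6h and 12h. Without the pig as block these adjusted p were 0.352 and 0.269. With all 27 libraries in 1 fit they were 0.0843 and 0.0355. At 6h the adjusted p was 0.0850 without pig 44 and 0.0560 without pig 77. Levels of CSF2RB in PD pigs 2, 3, 4 and 5 stood at 64.0, 84.0, 72.4 and 50.4 CPM at 0h, at 136, 95.3, 159.5 and 116 CPM at 6h, and at 92.4, 122, 152.5 and 112 CPM at 12h. The values at 6h and 12h all lay above those at 0h. CSF2RB had a log2 fold change of 0.88 ± 0.30 (SE, adjusted p = 0.375) at 6h and 0.83 ± 0.30 (adjusted p = 0.118) at 12h. Its adjusted p at 12h was 0.0256 with DESeq2, 0.0115 with all 27 libraries in 1 fit and 0.0378 without the 12h library of pig 2, and at 6h it was 0.0368 with all 27 libraries, with changes under 2-fold in each of these fits.

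CSF1R, the macrophage receptor, spread widely between pigs at each time. Levels of CSF1R in GS pigs 17, 44, 55, 77 and 9 stood at 474, 632, 348, 308 and 231 CPM at 0h, at 246, 723, 446, 589.6 and 98.9 CPM at 6h, and at 394, 554, 439, 348 and 213.5 CPM at 12h. The fit gave a log2 fold change of −0.12 ± 0.26 (SE, edgeR adjusted p = 0.758) and −0.11 ± 0.25 (adjusted p = 0.756). CSF1R in the PD lungs (pigs 2, 3, 4 and 5) stood at 135, 96.8, 107 and 147 CPM at 0h, at 66.8, 114, 64.3 and 172.5 CPM at 6h, and at 219.6, 38.5, 29.2 and 105 CPM at 12h. Pig 2 was the only PD pig higher at 12h than at 0h. With all 4 pigs the 12h log2 fold change was −0.61 ± 0.54 (SE, adjusted p = 0.534), and without the 12h library of pig 2 CSF1R was called lower (−1.40 ± 0.36, adjusted p = 0.0164).

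In that fit, with 14.3% of all genes called lower, 0 of 10 macrophage markers were called in either direction and their median log2 fold change was −0.28. The summed macrophage list in PD ran from 2887 to 4358 CPM at 0h and from 2585 to 5693 CPM at 12h, with pig 2 the highest at 12h.

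CSF3R, the neutrophil receptor, lay within 17.4 to 43.5 CPM in every PD library. CSF3R in the GS lungs (pigs 17, 44, 55, 77 and 9) stood at 33.3, 120, 62.4, 129.5 and 48.9 CPM at 0h, at 37.3, 76.0, 58.0, 115 and 29.9 CPM at 6h, and at 40.2, 75.1, 136, 146 and 61.0 CPM at 12h. The fitted log2 fold change of CSF3R was −0.34 ± 0.21 (SE, edgeR adjusted p = 0.233) at 6h and 0.18 ± 0.21 (adjusted p = 0.512) at 12h. In PD pigs 2, 3, 4 and 5 CSF3R stood at 26.3, 43.5, 19.2 and 26.1 CPM at 0h, at 18.4, 36.5, 19.1 and 26.7 CPM at 6h, and at 21.3, 21.3, 17.4 and 17.4 CPM at 12h. It was lower than at 0h in 4 of 4 pigs at 12h, as were 15.6% of genes, with a log2 fold change of −0.49 ± 0.32 (SE, adjusted p = 0.373). Beside it, the neutrophil marker list had 0 of 9 tested genes called in PD at 12h, a median of −0.95, beside 2.76% of all genes called lower. Without the 12h library of pig 2 it had 3 of 9 called lower (median −1.03), beside 14.3% of all genes. The part of neutrophil content in CSF3R was not tested.

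KIT showed no called difference from 0h. In GS pigs 17, 44, 55, 77 and 9 it stood at 72.7, 32.0, 113, 48.2 and 38.2 CPM at 0h, at 59.1, 36.8, 23.6, 37.4 and 53.4 CPM at 6h, and at 70.5, 45.1, 53.7, 64.7 and 108 CPM at 12h. KIT had a log2 fold change of −0.53 ± 0.32 (SE, edgeR adjusted p = 0.235) at 6h, when pig 55 dropped furthest, and 0.11 ± 0.32 (adjusted p = 0.798) at 12h. Levels of KIT in PD pigs 2, 3, 4 and 5 stood at 25.6, 27.4, 47.9 and 29.0 CPM at 0h, at 20.8, 33.1, 74.1 and 28.2 CPM at 6h, and at 21.2, 56.7, 46.5 and 30.0 CPM at 12h, with a log2 fold change of 0.12 ± 0.34 (adjusted p = 0.906) and 0.23 ± 0.34 (adjusted p = 0.732). Of 5 mast cell markers tested in GS at 12h, 3 were called lower, beside 8.66% of all genes, namely the histamine-forming enzyme HDC (−1.95 ± 0.49, adjusted p = 0.00783), the IgE receptor chain MS4A2 (−1.05 ± 0.20, adjusted p = 0.00193) and HPGDS (−2.92 ± 0.49, adjusted p = 0.000834), and the summed list went from 24.0 to 51.3 CPM at 0h to 20.8 to 33.8 CPM at 12h. In PD at 12h 1 of 4 tested was called lower, FCER1A (−1.52 ± 0.38), beside 2.76% of all genes, and the median was −1.37. This became 3 of 5 without the 12h library of pig 2, beside 14.3% of all genes. HPGDS was at 0 in 6 of 27 libraries, and 4 of the 9 markers listed had no row with their symbol.

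**Figure D3:**
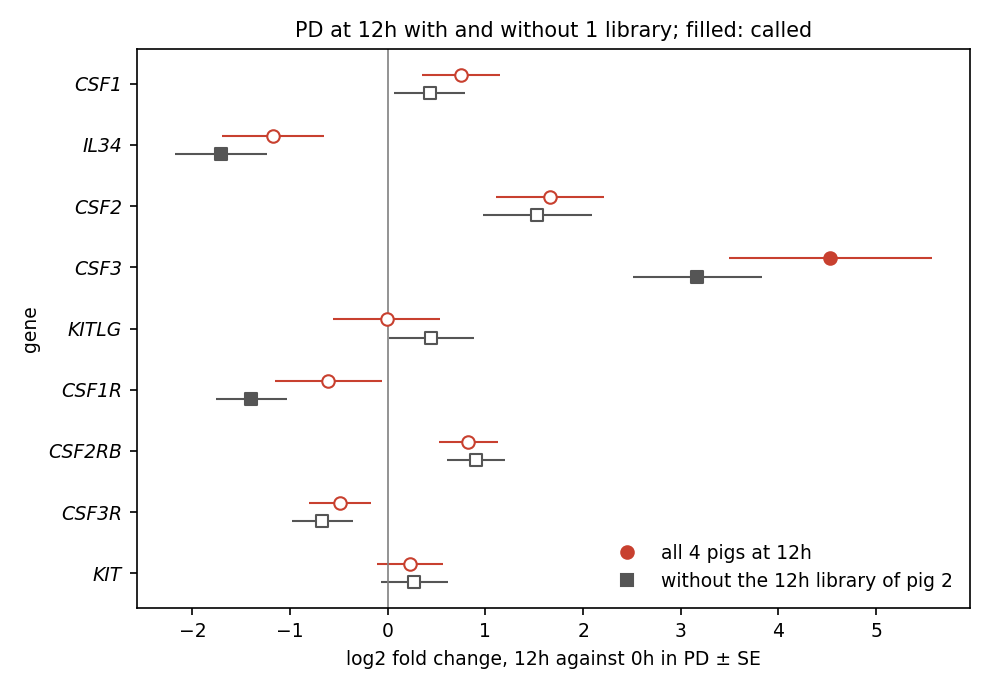
Log2 fold change at 12h against 0h in PD with its SE, with all 4 pigs (red circles) and without the 12h library of pig 2 (grey squares), filled where called. CSF3 is filled in both (4.53 and 3.17), while CSF1R (−1.40) and IL34 (−1.71) are filled only without that library.

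Between 6h and 12h no member was called in either group by adjusted p alone, with edgeR calling 0.0% of genes. At an unadjusted p under 0.05 edgeR had 884 genes in GS (4.75%) and 1562 in PD (10.1%), among them 1 member, CSF3R in GS (log2 fold change 0.52 ± 0.21, SE, unadjusted p = 0.0257, adjusted p = 1.0). DESeq2 called 1 gene higher and 1 lower in GS (0.00538% each) and 111 higher and 124 lower in PD (0.714% and 0.798%), none of them a member. Nor was a member called in the fit over all 27 libraries, which called 1.39% of genes higher and 1.35% lower in PD and 0.0% in GS. CSF3 had a log2 fold change of 0.63 ± 0.37 (SE) in GS and 1.58 ± 0.97 in PD, the latter 0.22 ± 0.64 without the 12h library of pig 2. From 6h to 12h CSF3 went down in PD pigs 3 and 4 and up in pigs 2 and 5. KIT was higher at 12h than at 6h in 5 of 5 GS pigs (0.64 ± 0.31, unadjusted p = 0.0607).

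The difference between the groups in the change from 0h was tested directly as an interaction of group and time. No member and 0.0% of the 17884 genes were called by edgeR at either time. Unadjusted p under 0.05 were 5.85% of genes at 6h and 5.98% at 12h, no member among them. DESeq2 called 5 genes higher and 2 lower at 6h (0.028% and 0.0112%) and 12 higher and 3 lower at 12h (0.0671% and 0.0168%), none of them a member. CSF3 differed by 0.74 ± 0.92 (log2, PD minus GS, SE, adjusted p = 0.866) at 6h and by 1.66 ± 1.02 (adjusted p = 0.903) at 12h, and the latter was 0.31 ± 0.79 without the 12h library of PD pig 2. CSF2 differed by 0.88 ± 0.64 at both times (adjusted p = 0.791 and 0.921), and at 12h the sign turned without the pig as block (−0.0123). The smallest edgeR adjusted p among the members was that of KITLG at 6h (0.999 ± 0.53, adjusted p = 0.783). CSF3R at 12h differed by −0.70 ± 0.35 (adjusted p = 0.843). An exact Wilcoxon test on the changes of each pig called no member (CSF3 at 12h 1.12, adjusted p = 0.949). With 4 against 5 pigs its smallest possible p is too large to pass correction over all genes unless very many reach it. Its lack of calls therefore says nothing about the members. For CSF3R at 12h, 4 of 5 GS pigs were higher and 4 of 4 PD pigs lower than at 0h. For KITLG at 6h, 4 of 5 GS pigs were lower and 4 of 4 PD pigs higher.

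Before perfusion, when neither treatment had been applied, 3 of the 4 receptors already differed between the groups. CSF1R was lower in PD (96.8 to 147 CPM against 231 to 632 in GS), with a log2 difference of −1.63 ± 0.29 (SE, edgeR adjusted p = 0.00106). CSF2RB was lower by the same measure (50.4 to 84.0 against 135 to 313 CPM, −1.66 ± 0.30, adjusted p = 0.000987), and so was CSF3R (19.2 to 43.5 against 33.3 to 129.5 CPM, −1.37 ± 0.39, adjusted p = 0.0156). For CSF1R and CSF2RB no PD pig reached any GS pig, while CSF3R overlapped. The 3 of 9 members called lower stand beside 13.9% of all tested genes called lower and 15.2% called higher. CSF1 had a log2 difference of −0.97 ± 0.24 (adjusted p = 0.00642), without overlap between the groups but under 2-fold (by adjusted p alone 19.3% of genes were lower), and it passed the 2-fold mark without a filter on low counts (−1.05) and without GS pig 17, 55 or 9 or PD pig 4 (−1.03, −1.03, −1.07 and −1.15). Without PD pig 4 CSF1R, CSF2RB and CSF3R were still called (−1.59, −1.71 and −1.22).

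The remaining members did not pass at 0h. KIT had −0.80 ± 0.36 (SE, edgeR adjusted p = 0.0981), and −1.08 (adjusted p = 0.0306) without PD pig 4, a fit whose share of all genes called is not given. CSF2 had 0.83 ± 0.69 and CSF3 0.61 ± 0.50 (adjusted p = 0.362 and 0.357), and both turned negative without PD pig 4 (−0.43 and −0.28). IL34 (−0.06 ± 0.26) and KITLG (−0.08 ± 0.31) differed by less than their errors (adjusted p = 0.885 and 0.861).

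**Figure D4:**
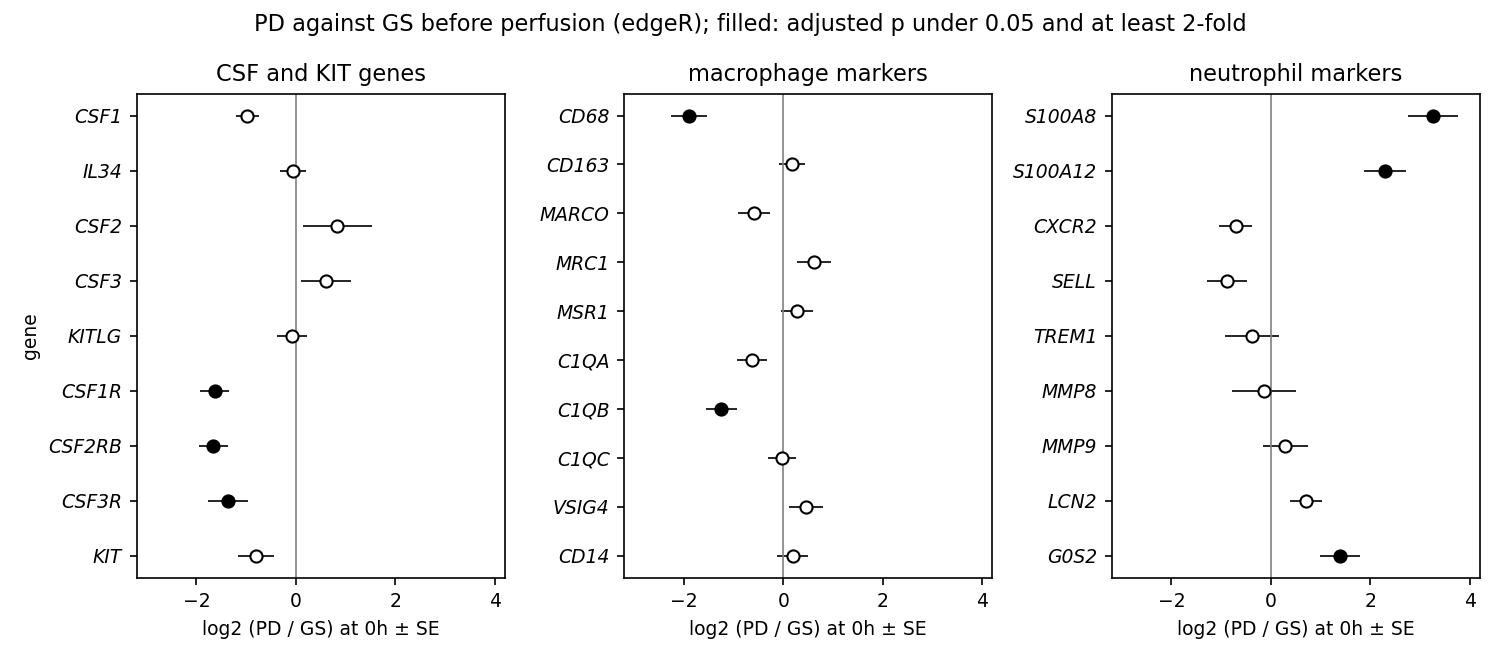
Log2 ratio of PD to GS at 0h with its SE for the 9 genes (left), the tested macrophage markers (middle) and the tested neutrophil markers (right), filled where called. CSF1R, CSF2RB and CSF3R are filled below 0, whereas 2 of 10 macrophage markers are filled below 0 and 3 of 9 neutrophil markers above it.

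Cell type markers were read beside these receptors, and their counts stand beside the same 13.9% of all genes called lower and 15.2% called higher. At 0h the macrophage list had 2 of 10 genes called lower in PD and 0 higher, CD68 (−1.89 ± 0.36) and C1QB (−1.25 ± 0.31), with a median of 0.07 beside 0.002 over all genes, and its sum was 2887 to 4358 CPM in PD against 4302 to 8417 CPM in GS. The neutrophil list had 3 of 9 called higher and 0 lower, S100A8 (3.27 ± 0.50), S100A12 (2.29 ± 0.42) and G0S2 (1.40 ± 0.40), while 4 of 9 had negative values and the median was 0.29, with a sum of 708.3 to 1240 CPM against 192 to 470.2. The alveolar epithelial list went both ways, with SFTPC called higher (3.56 ± 0.40), SFTPB called lower (−1.35 ± 0.38) and a median of 0.32 over 6 genes, and SFTPC dominated its sum of 26290 to 72850 against 7178 to 10280 CPM. Of 2 red cell markers HBB was called higher (4.96 ± 0.73), with sums of 50.6 to 222.9 against 0.354 to 10.5 CPM. The endothelial list had 3 of 8 called lower and 1 higher (median −0.49), and its sum did not overlap between the groups, with 1242 to 1918 CPM in PD against 2102 to 2974 in GS. The mast cell list, whose cells carry KIT, had 2 of 5 called higher and 0 lower (median 0.79). The part of tissue makeup, depth or batch in the receptor difference was not tested. CSF2RB lay below GS in every PD pig at 6h (95.3 to 159.5 against 167 to 561 CPM) and 12h (92.4 to 152.5 against 173 to 578 CPM). CSF3R did so at 12h (17.4 to 21.3 against 40.2 to 146 CPM). CSF1R overlapped at 12h only through PD pig 2 (219.6 CPM against 213.5 at the lowest in GS), with the other PD pigs at 38.5, 29.2 and 105 CPM. Among all genes 18.0% had no overlap in this direction at 0h, 9.75% at 6h and 12.5% at 12h.

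The surrounding pathway was read from lists of genes chosen by role, whose counts at 12h stand beside 6.99% of all genes called higher and 8.66% lower in GS and 3.22% and 2.76% in PD. Among partner receptors and ligands, 0 of 7 tested genes were called higher and 1 lower in GS at 12h, IL5RA (−2.27 ± 0.67, adjusted p = 0.0174), which pairs with CSF2RB to bind IL-5, and 0 of 6 were called in PD. The alpha chain CSF2RA has close copies in the table and its counts are uncertain. Among receptor signalling genes, 2 of 21 were called higher and 2 lower in GS at 12h (median 0.01, all genes −0.08), and 3 higher and 1 lower in PD (median 0.47, all genes −0.05), and the GS shares lie near those of all genes. STAT5A, the transcription factor that CSF2 receptors activate, had 1.0 ± 0.24 (adjusted p = 0.00605) in GS and 1.95 ± 0.48 (adjusted p = 0.0398) in PD. The adaptor GAB2 had 1.17 ± 0.18 and 1.55 ± 0.36 (adjusted p = 0.000469 and 0.0319). PTPN6, a phosphatase that dampens these receptors, was called lower in both (−1.41 ± 0.25 and −1.64 ± 0.38, adjusted p = 0.00118 and 0.0328).

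Feedback and target genes had the most calls in GS, 7 of 17 higher and 2 lower at 12h (median 0.76), against 4 of 17 higher and 0 lower in PD (median 1.02). SOCS3, the inhibitor induced by CSF3 receptors and other cytokine receptors, had 1.99 ± 0.37 (adjusted p = 0.00155) in GS and 2.52 ± 0.52 (adjusted p = 0.0259) in PD. MYC had 1.66 ± 0.25 (adjusted p = 0.000442) and 2.62 ± 0.45 (adjusted p = 0.0176). EGR1, an immediate early gene, was called lower in GS (−3.71 ± 0.995, adjusted p = 0.0127) and stood lower in PD than in GS before perfusion (−3.79 ± 0.52, adjusted p = 0.000180). SOCS3, MYC and EGR1 respond to many signals besides CSF receptors.

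Among myeloid transcription factors 1 of 11 was called higher and 1 lower in GS at 12h, near the shares of all genes, CEBPD (1.70 ± 0.18, adjusted p = 7.41e-05), a factor of granulocyte maturation and the acute phase, and MITF (−1.05 ± 0.14, adjusted p = 0.000232), a mast cell and melanocyte factor. In PD 1 of 10 was called, RUNX1 (1.35 ± 0.34, adjusted p = 0.0414). Of 7 factors that bind CSF messengers and regulate their decay, 1 was called at 12h in each group, the ribonuclease ZC3H12A (1.51 ± 0.33 in GS and 2.34 ± 0.59 in PD, adjusted p = 0.00336 and 0.0414). Of 11 tested inducers of CSF genes, 3 were called higher in GS (median 0.55) and 6 in PD (median 1.48), and 0 lower in either. FOSL1, an AP-1 subunit, had 5.22 ± 0.75 (adjusted p = 0.000380) in GS and 3.63 ± 0.60 (adjusted p = 0.0176) in PD, TNF had 1.97 ± 0.48 (adjusted p = 0.00642) and 2.71 ± 0.41 (adjusted p = 0.0149), and IL1B was called in PD (3.03 ± 0.72, adjusted p = 0.0351).

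Without the 12h library of PD pig 2, the PD counts at 12h became 7 higher and 3 lower for receptor signalling, 7 and 1 for feedback and targets, 2 and 0 for myeloid factors, 3 and 0 for decay factors and 7 and 0 for inducers, in a fit with 11.9% of genes called higher and 14.3% lower. At 6h in PD 1 feedback gene was called lower and 1 inducer higher, and in GS the counts at 6h were 6 higher and 2 lower for feedback and targets and 3 and 1 for inducers. Over all genes 0.135% were called higher and 0.00643% lower in PD at 6h, and 5.5% and 5.56% in GS. None of these lists had a gene called by edgeR for the difference between PD and GS in the change from 0h. That comparison called 0.0% of all genes at either time. At 0h, receptor signalling had 8 of 21 genes called lower in PD than in GS and 0 higher (median −0.61). Inducers had 5 of 11 lower and 0 higher (median −0.37), and feedback and targets 5 of 17 and 3. Decay factors had 2 of 7 lower, myeloid factors 2 of 11 and partner receptors and ligands 1 of 7, with 0, 0 and 2 higher. Over all genes 13.9% were called lower and 15.2% higher at 0h.

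**Figure D5:**
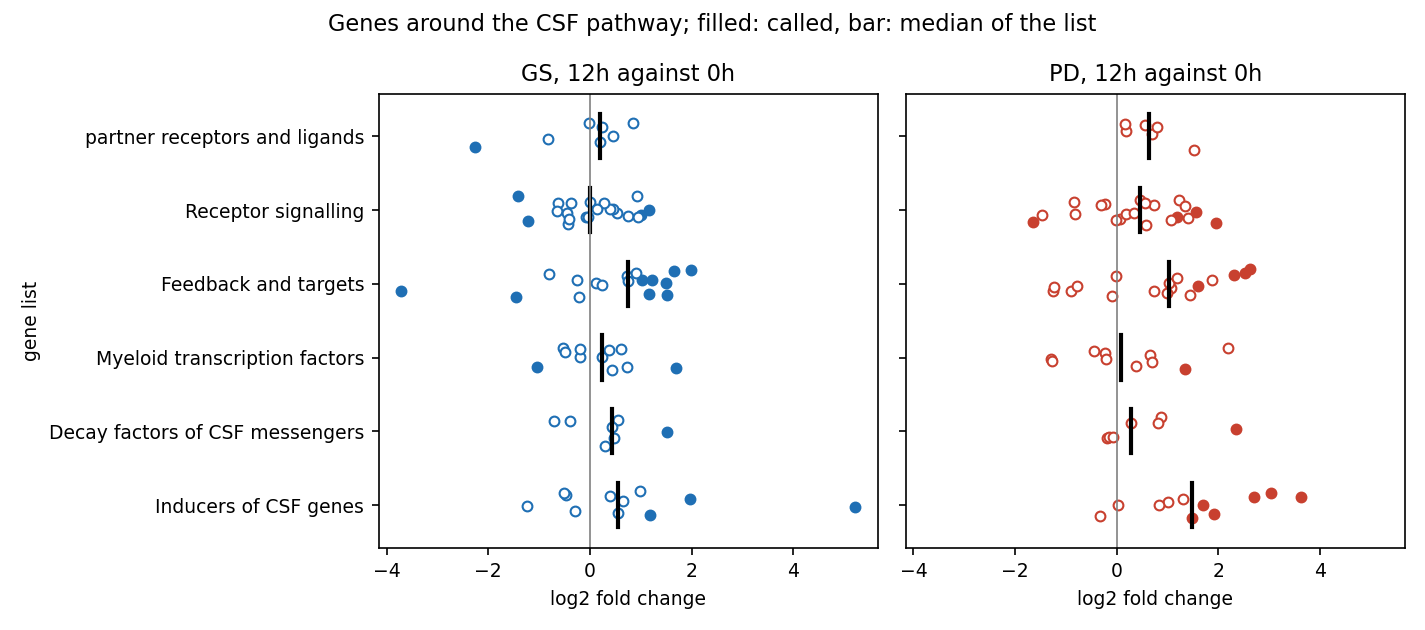
Log2 fold change at 12h against 0h of each tested gene of 6 lists around the CSF pathway in GS (left) and PD (right), filled where called, with a bar at the median of the list (points are spread vertically for visibility). The inducers lie furthest right in PD, with a median of 1.48 and 6 of 11 genes filled, against 0.55 and 3 of 11 in GS.

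The genes whose profile was most like that of each member were listed from log2 CPM over the 27 libraries with the mean of each pig taken off, among 13417 genes, as a description, since all points share libraries and depth. Among the genes nearest to CSF3 were CEBPD (r = 0.944) and ATF4 (0.933), a factor of the amino acid response. CSF2 had IL6 (0.809), SOX9 (0.806) and IFFO2 (0.794). CSF1 had GJA4 (0.909), GPRC5C (0.891) and REC8 (0.873). CSF2RB had ZNF280B (0.945), BACH1 (0.927) and RLIM (0.925), and CSF1R had ADRA2C (0.910) and TRAPPC9 (0.897).

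For IL34 the nearest were BMP7 (r = 0.886), KIAA1755 (0.882) and DAPK2 (0.864), and for KITLG DPH6 (0.920), MCTP1 (0.913) and LIMCH1 (0.899). CSF3R and KIT had no close match, CSF3R reaching r = 0.707 with OSCAR, 0.686 with SEMA4A and 0.662 with the neutrophil collagenase MMP8, and KIT 0.661 with PDGFRA, which lies upstream of it on the same chromosome, 0.647 with EGFLAM and 0.645 with PLCB4. Within the family the highest r were CSF1 with CSF3 (0.783), CSF2 with CSF3 (0.751), CSF3 with CSF2RB (0.701) and CSF1R with IL34 (0.632). Leaving out the 12h library of PD pig 2, these were 0.723, 0.767, 0.823 and 0.624, and CSF1 with CSF1R was 0.0779. Between ligands and their own receptors r ran from the 0.632 of IL34 with CSF1R through CSF2 with CSF2RB (0.586), CSF1 with CSF1R (0.229) and KITLG with KIT (−0.02) to CSF3 with CSF3R (−0.25).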

How the data were processed

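Strand-specific TruSeq mRNA libraries of 27 lung biopsies were sequenced on an Illumina NextSeq instrument. The authors deposited 1 table of raw counts per gene (31908 genes, 18056 with a symbol), made with bcl2fastq 2.2.18.12, cutadapt 1.15 and TopHat2 2.0.14 on Sscrofa11.1 with Ensembl release 101. The submitters' processing notes also name featureCounts, Subread 1.6.0 and DESeq2 1.18.1. How multi-mapped reads were counted is not given in the sources used here. RNA was extracted with 1 of 2 kits depending on how the biopsy was stored, and which library had which is not given. All 27 columns were matched to samples by name.

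The 9 members and all gene lists were chosen with earlier results of these data known. The named genes were the members, for each the 3 genes with the highest Pearson r, and at most the 3 genes per pathway list called with the largest change at 12h. The marker genes named were those called, chosen after their values were seen. IL3, IL3RA and SOCS2 were not matched by symbol. Some items that these rules name are not reported here. Markers were of macrophages, neutrophils, mast cells, endothelium, fibroblasts, alveolar epithelium, lymphoid cells and red cells.

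Counts were tested with edgeR 4.0.16 (filterByExpr, TMM, robust quasi-likelihood F test, R 4.3.3, limma 3.58.1), tested beforehand on simulated data, with p-values adjusted by Benjamini-Hochberg over all genes tested. Each group was fitted apart (GS 15 and PD 12 libraries) with pig as block, since libraries with the same number come from the same animal. The mean correlation of same-pig residuals was 0.547 in GS and 0.117 in PD, against −0.12 and −0.03 between pigs. The interaction was fitted over 27 libraries, and PD against GS at 0h over 9. The call rule for 12h against 6h and for the interaction was adjusted p under 0.05 with no fold threshold. Apart from the floor of 3 counts, which was scaled by total counts, CPM used TMM library sizes. CPM per kb divided these TMM-scaled values by the RefSeq exon length. Per-pig log2 ratios had 0.5 added to each count. The SE was the log2 fold change divided by the square root of F. No pair of libraries agreed within sampling noise (lowest chi-square per degree of freedom 36.4). Alternatives were no pig block, DESeq2 1.42.0, DESeq2 size factors, no filter, no fold threshold, 1 fit over all libraries, an exact two-sided Wilcoxon test for the interaction, each pig left out, and, chosen after seeing the data, the 12h library of PD pig 2 left out. Promoters came from the RefSeq annotation of Sscrofa11.1.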

Additional observations from a re-analysis of the deposited data

Results flagged for a closer look

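In 54 sets of 1 gene, group and time, the gap of a sample to the nearest other pig was divided by the range of the set. A sample was singled out where this exceeded Dixon's 95% critical value, which held for 8 sets. Chance does so in about 1 in 20 independent sets of normally distributed values. These sets share libraries and the spread of their CPM was not checked, so the 8 cannot be read against that rate. PD pig 4 accounted for 4 of them, all as the highest pig of its set. It had 14.1 CPM of CSF3 and 47.9 CPM of KIT at 0h, and 44.1 CPM of CSF2 and 97.0 CPM of CSF3 at 6h. PD pig 2 had 6.88 CPM of IL34 at 12h, in the library that stood apart from its group as a whole.

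In GS, pig 77 had 4.68 CPM of CSF2 at 0h and pig 44 had 51.9 CPM of CSF3 at 6h, each the highest of 5. Pig 9 had 5.50 CPM of CSF3 at 12h, the only low value among the 8.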

How the results depend on the processing

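Leaving out the 12h library of PD pig 2 was chosen after seeing the data. The number of members called in PD then went from 0 to 1 at 6h and from 1 to 3 at 12h, while the share of all genes called higher went from 0.135% to 1.3% at 6h and from 3.22% to 11.9% at 12h, and lower at 12h from 2.76% to 14.3%. DESeq2 and the fit over all 27 libraries each gave 1 at 6h and 2 at 12h. They called 2.05% and 1.89% of genes higher at 6h and 8.77% each at 12h. Without a fold threshold the number in GS was 2 at 6h and 3 at 12h. By that rule 13.6% of genes were higher and 14.9% lower at 6h, and 17.6% and 20.8% at 12h. With each pig left out in turn the number was 1 to 2 in GS at 12h, 0 to 3 in PD at 12h and 3 to 5 at 0h between groups. The shares of all genes called in the fits with a pig left out are not given, so these counts cannot be set against them. The pig block, as a paired analysis, changed the call of no member, and without it CSF3 had log2 fold changes of 2.37 and 3.02 in GS and 2.83 and 4.70 in PD at 6h and 12h, while CSF2 in PD at 12h went from 1.66 to 0.93.

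The signs that turned were of values that were not called. Without the pig block CSF1R in GS at 6h was 0.0296, and the CSF2 interaction at 12h, 0.88 with the block, was −0.0123. KITLG in PD at 12h was 0.029 with DESeq2, 0.0293 with its size factors, 0.0261 without the filter on low counts, and 0.45 without the 12h library of pig 2. With each pig left out, the ranges were −0.39 to 0.16 for CSF1R in GS at 6h, −0.0519 to 0.415 for CSF3R, −0.41 to 0.13 for IL34 and −0.14 to 0.51 for KIT in GS at 12h, −0.0298 to 0.24 for KIT in PD at 6h, and −0.0762 to 0.34 for KIT and −0.66 to 0.40 for KITLG in PD at 12h. At 0h they were −0.43 to 1.19 for CSF2, −0.28 to 0.81 for CSF3, −0.16 to 0.065 for IL34 and −0.26 to 0.15 for KITLG. The cause was not tested. Of the single-gene values, 294 with a pig left out and 269 under other settings kept direction and call.

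Counts of CSF2 as low as 10 limit its precision. Depth and group cannot be told apart. Libraries of 1 pig are repeated biopsies of 1 lung, so n is the number of pigs.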
